A study of Mus musculus with 367 samples.

Results

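The 9 small leucine-rich proteoglycan genes Dcn, Lum, Bgn, Fmod, Ogn, Omd, Aspn, Prelp and Podn were followed in single cells of mouse skin wounds, as 9 of the 50600 gene identifiers measured. They were taken by name, and their levels were read in 3 kinds of cell defined by other genes. Matrix cells had at least 1000 FPKM of Col1a1, less than 100 of Rgs5 and less than 50 of Tyrobp. Mural cells had at least 500 FPKM of Rgs5 and less than 50 of Tyrobp, and myeloid cells had at least 500 FPKM of Tyrobp. FPKM are the fragments of a gene scaled to its length and to everything read in that cell, so that levels of different genes can be set side by side. All cells came from Sm22-Cre;tdTomato mice of mixed background, young adults of both sexes, whose large dorsal wounds were left to heal for 12, 15 or 21 days. Viable tdTomato-high cells were sorted and caught singly in C1 microfluidic captures, 3 of day 12 and 2 each of days 15 and 21, from wound tissue pooled from a few mice per time point. Cre is under the promoter of Tagln, which encodes SM22, so the label marks any cell in which that promoter has been active whether or not it is contractile when sorted. No unwounded or untreated group was part of these captures.

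Small leucine-rich proteoglycans are short secreted proteins whose leucine-rich repeats bind fibrillar collagens. They set the spacing and diameter of collagen fibrils, and several also hold growth factors such as TGF-beta in the matrix. Decorin and biglycan carry chondroitin or dermatan sulfate chains, and asporin, their close relative, carries none. Lumican, fibromodulin and osteomodulin can carry keratan sulfate, while PRELP binds heparan sulfate at basement membranes, and in dermis decorin and lumican are classic products of fibroblasts.

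After removal of cells with few fragments, very many genes or much mitochondrial RNA, 292 of 367 cells were kept, between 27 and 73 in a capture. Of these, 198 were matrix cells, 57 mural cells, 26 myeloid cells and 11 none of these. The files hold no counts, so depth was inferred from the smallest increments in each cell's values. The median number of fragments was lowest in the day 15 captures, at 968199 and 947131 fragments, and reached 2348279 in capture 2 of day 21. In the median cell of a capture 1 fragment was worth between 0.192 and 0.475 FPKM for Lum or Ogn, so in such a cell 10 FPKM rested on many fragments. The shallowest kept cell had 171303 fragments, and there the same level rested on fewer. The kinds fitted their markers, as each of 10 markers listed for matrix, mural and myeloid cells had its highest mean in its own kind. Summed over the 10 myeloid markers, captures lay between 6.83 and 72.9 FPKM in matrix cells, 0.392 and 53.5 in mural cells and 19082 and 32474 in myeloid cells. Ptprc, Fcer1g, C1qa, C1qc and Cd14 were at 0 in all mural cells. In matrix cells the 5 keratinocyte markers summed to between 0.291 and 15.2 FPKM in a capture, almost all of it Krt10, with Krt5 and Krt1 at 0. The 6 endothelial markers summed to between 0.125 and 7.48 FPKM, with Kdr and Cldn5 at 0. The 4 Schwann cell markers summed to between 0.0165 and 46.5 FPKM in matrix cells and reached 93.1 in mural cells. The 6 markers of tendon and cartilage summed to between 40.4 and 285 FPKM in matrix cells, where Tnmd alone averaged 102 ± 84.6 (SD, n = 7) and Scx was at 0. The part of such cells in the members' levels was not tested. Tagln itself averaged 233 FPKM in matrix cells, 818 in mural cells and 40.6 in myeloid cells. Captures served as replicates, and since they are not stated to come from different mice, p-values measure the spread between captures only, which may be technical.

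The members lie partly in groups on the genome (GRCm38, GENCODE M21). Dcn (chr10:97479609-97518143, + strand) and Lum (chr10:97565128-97572703, + strand) are 47 kb apart. Aspn (chr13:49544443-49567565), Omd (chr13:49582462-49592822) and Ogn (chr13:49608046-49624501) follow each other on the + strand with gaps of 14.9 and 15.2 kb. Prelp (chr1:133910304-133921414, - strand) lies 115.8 kb from Fmod (chr1:134037254-134048277, + strand), and Bgn (chrX:73483602-73495933, + strand) and Podn (chr4:108014791-108096445, - strand) have no member nearby. Aspn, Omd and Ogn lie inside Cenpp, which is read from the other strand, and Podn overlaps Scp2. The counting is not stated to use strand, so reads of overlapping genes cannot be told apart. Cenpp averaged 2.27 FPKM over the matrix cells and was detected in 11 of them, whereas Scp2 averaged 98.6 and was detected in 127.

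The 250 bases before the start of 6 members are shown, because neighbours among them varied together from cell to cell and Bgn was the leading member in mural cells. They are from RefSeq (GRCm38.p6), whose promoter table matched 7 of the 9 members, and are written 5′ to 3′ on the strand of the gene. Capitals mark matches, on either strand, to TATAAA (the core of the TATA box), to CCAAT (the core of the CCAAT box), to GGGCGG (the core of the GC box) or to TGANTCA (the AP-1 site).
Bgn: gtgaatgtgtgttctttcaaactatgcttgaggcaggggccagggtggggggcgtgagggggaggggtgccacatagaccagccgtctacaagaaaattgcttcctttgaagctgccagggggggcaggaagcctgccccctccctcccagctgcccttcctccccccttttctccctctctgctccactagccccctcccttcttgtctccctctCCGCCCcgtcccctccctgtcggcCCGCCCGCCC
Aspn: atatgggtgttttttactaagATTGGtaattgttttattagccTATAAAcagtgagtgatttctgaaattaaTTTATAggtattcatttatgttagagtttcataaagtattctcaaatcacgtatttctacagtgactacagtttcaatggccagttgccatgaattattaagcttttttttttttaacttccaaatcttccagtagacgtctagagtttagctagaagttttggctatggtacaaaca
Omd: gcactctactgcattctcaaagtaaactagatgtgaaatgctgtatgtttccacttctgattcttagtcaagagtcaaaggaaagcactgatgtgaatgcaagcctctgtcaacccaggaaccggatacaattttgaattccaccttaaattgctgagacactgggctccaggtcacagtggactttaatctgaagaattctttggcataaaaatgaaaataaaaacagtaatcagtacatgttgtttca
Ogn: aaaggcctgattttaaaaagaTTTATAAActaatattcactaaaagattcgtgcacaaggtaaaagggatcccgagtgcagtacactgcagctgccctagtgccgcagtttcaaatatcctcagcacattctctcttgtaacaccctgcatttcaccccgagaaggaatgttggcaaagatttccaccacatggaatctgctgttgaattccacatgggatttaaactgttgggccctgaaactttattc
Prelp: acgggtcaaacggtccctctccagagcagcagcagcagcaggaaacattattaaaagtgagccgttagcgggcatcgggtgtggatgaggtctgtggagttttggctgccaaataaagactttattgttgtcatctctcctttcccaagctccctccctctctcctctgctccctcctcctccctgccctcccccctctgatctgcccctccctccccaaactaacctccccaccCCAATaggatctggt
Fmod: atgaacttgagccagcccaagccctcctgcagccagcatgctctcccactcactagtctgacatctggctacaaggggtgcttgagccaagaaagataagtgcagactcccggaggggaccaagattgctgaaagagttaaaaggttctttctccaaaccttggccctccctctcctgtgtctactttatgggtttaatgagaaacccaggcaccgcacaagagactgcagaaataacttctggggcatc
These windows are chrX:73483351-73483600 (+ strand) for Bgn, chr13:49544193-49544442 (+) for Aspn, chr13:49582212-49582461 (+) for Omd, chr13:49607765-49608014 (+) for Ogn, chr1:133921402-133921651 (-) for Prelp and chr1:134037004-134037253 (+) for Fmod. Bgn held GGGCGG 3 times on the opposite strand, beginning 34, 10 and 6 bases before the start, and the matches at 10 and 6 overlapped. Aspn held TATAAA 207 and 178 bases before the start and CCAAT 229 before it, the TATAAA at 178 and the CCAAT being on the opposite strand. Ogn held a pair of overlapping TATAAA matches on both strands 229 and 227 bases before the start, Prelp held CCAAT 15 bases before it, and Omd and Fmod held none of the 4. Over all 32851 promoters of this length in the table, 12.4% held TATAAA, 33.8% CCAAT, 32.7% GGGCGG and 6.75% TGANTCA, so the matches are a description of these windows only. The share of G and C was 64.4% in Bgn and 30% in Aspn, beside a median of 52.4% over all promoters.

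In matrix cells 4 of the 9 members were among the most abundant transcripts and the other 5 ranked far lower. Dcn, the decorin gene, averaged 5021 ± 1401 FPKM over captures (SD, n = 7) and ranked 14 among all genes. Lum, encoding lumican, averaged 2799 ± 365 and ranked 29, Bgn 1560 ± 394 and ranked 49, and Aspn 1294 ± 291 and ranked 63. Ogn, encoding osteoglycin, averaged 215 ± 75.2 and ranked 576, and Omd averaged 103 ± 83.7 and ranked 1049. Prelp averaged 57 ± 58.8 (rank 1781), Fmod 27.3 ± 35.8 (rank 3166) and Podn, encoding podocan, 3.58 ± 4.47 (rank 9841). In this order Dcn lay above Lum, Lum above Bgn and Aspn above Ogn in 7 of 7 captures with no overlap of their ranges. Bgn and Aspn overlapped, with Bgn the higher in 5 of 7 captures, and each step from Ogn down to Podn held in 6 of 7 captures with overlapping ranges. Together the 9 genes took between 1.22% and 1.96% of all FPKM of the matrix cells of a capture, and Dcn alone between 41% and 52.1% of that share.

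**Figure D1:**
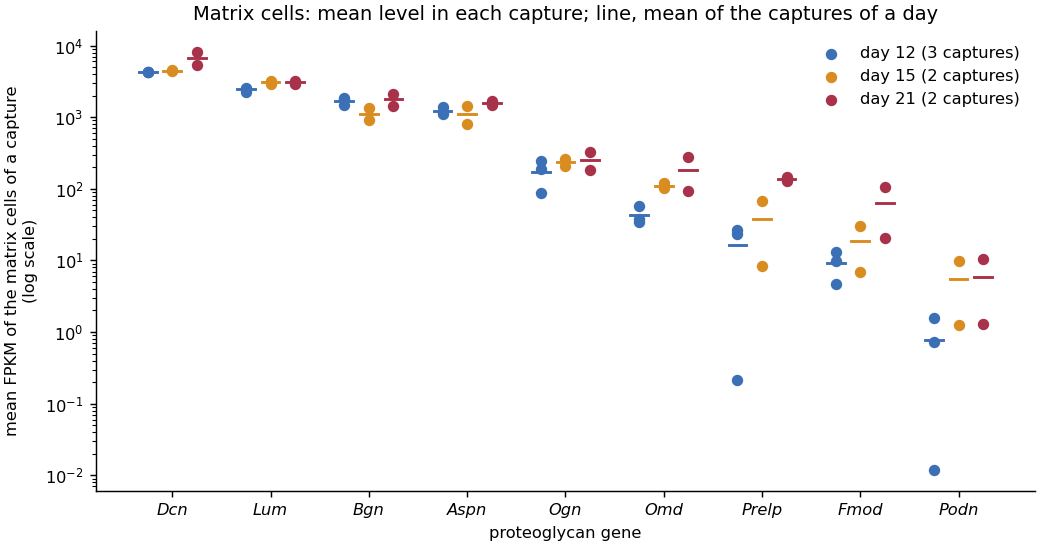
Mean FPKM of each proteoglycan gene over the matrix cells of a capture, on a log axis. Points are the 7 captures, colored by day after wounding, and short lines are the means of the captures of a day. Dcn, Lum, Bgn and Aspn stay above 800 FPKM in every capture, while Prelp, Fmod and Podn spread widely within a day.

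The most abundant members were also found in nearly every matrix cell. Dcn and Bgn were detected in 198 of 198 cells (exact 95% interval 98.2 to 100%), Lum in 196, Aspn in 191 and Ogn in 163. Omd was detected in 79 cells (39.9%, 33 to 47.1%), Prelp in 78, Fmod in 48 (24.2%, 18.4 to 30.8%) and Podn in 30. These intervals cover counting error only. The scarce members were thus not low in every cell but high in a few. Among the matrix cells with at least 10 FPKM the median was 181 FPKM for Omd (63 cells), 105 for Prelp (63 cells), 91.2 for Fmod (30 cells) and 54.8 for Podn (10 cells). Their highest single cells reached 1983, 1564, 1340 and 137 FPKM. Dcn, Lum, Bgn and Aspn were all at 10 FPKM or more in 188 of the 198 cells, and all at 100 or more in 178. A matrix cell had between 2 and 8 of the 9 members at 10 FPKM or more, and none had all 9.

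The first comparison asked whether the matrix cells of later wounds differ from those of day 12, when the wound has just closed. No member passed the test between any pair of days (limma on log2(mean FPKM + 1) per capture, Benjamini-Hochberg over all 13552 genes tested). The share of genes called was 0% for day 15 against 12, 0.00738% for day 21 against 12 and 0% for day 21 against 15. At an unadjusted p under 0.05 there were 791, 968 and 745 genes, and the median difference over all genes was -0.10, -0.19 and -0.05. The single gene called was Gm2564, named after its value was seen. The 3 comparisons share their captures and are not independent.

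The mean of Dcn was 4280, 4331 and 4286 FPKM in the captures of day 12, 4366 and 4510 on day 15, and 5282 and 8095 on day 21. The captures of the 3 days thus did not overlap, but days 12 and 15 were almost level. The log2 difference of day 21 from day 12 was 0.60 ± 0.22 (SE, adjusted p = 0.615). Lum, which binds fibrils beside decorin, was at 2251, 2475 and 2596 FPKM on day 12, at 3198 and 2935 on day 15, and at 2952 and 3189 on day 21. Both later days lay above day 12 without overlap and overlapped each other, and the difference of day 21 from day 12 was 0.33 ± 0.21 (adjusted p = 0.774).

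Bgn, whose free protein can signal through Toll-like receptors, was at 1799, 1457 and 1864 FPKM on day 12, at 1328 and 918 on day 15, and at 1451 and 2100 on day 21. It was lowest in the day 15 captures, below both other days without overlap. The difference of day 15 from day 12 was -0.62 ± 0.28 (adjusted p = 0.856) and that of day 21 from day 15 was 0.66 ± 0.31 (adjusted p = 0.887). Aspn, whose product binds collagen and TGF-beta, was at 1184, 1091 and 1380 FPKM on day 12, at 800 and 1447 on day 15, and at 1676 and 1477 on day 21. Only the day 21 captures lay above those of both other days, by 0.38 ± 0.30 over day 12 (adjusted p = 0.822).

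Ogn, a matrix protein first found in bone, was at 190, 87.2 and 245 FPKM on day 12, at 207 and 262 on day 15, and at 184 and 328 on day 21, and its days overlapped. Omd, its neighbour on chromosome 13, was at 34.9, 38.2 and 57.5 FPKM on day 12, at 119 and 102 on day 15, and at 278 and 93.2 on day 21. The 4 later captures all lay above the 3 of day 12. The log2 difference was 1.35 ± 0.53 for day 15 (adjusted p = 0.802) and 1.90 ± 0.53 for day 21 (unadjusted p = 0.00467, adjusted p = 0.478), the lowest p of any member between days. The share of matrix cells with at least 10 FPKM of Omd overlapped between the days, at 22.6%, 26.9% and 47.1% on day 12, 30% and 27.3% on day 15, and 50% and 32.4% on day 21. The median among such cells lay between 43.2 and 95.7 FPKM in the captures of day 12 and between 128 and 371 in the later ones.

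Prelp was at 23.1, 0.216 and 26.3 FPKM on day 12, at 67.6 and 8.28 on day 15, and at 146 and 128 on day 21. The day 21 captures lay above all others, and in capture 2 of day 12 Prelp was nearly absent, with its only positive cell at 5.61 FPKM. The share of cells with at least 10 FPKM was 16.1%, 0% and 35.3% on day 12, 40% and 13.6% on day 15, and 44.4% and 61.8% on day 21. The log2 difference of day 21 from day 12 was 3.89 ± 1.27 (interval 1.08 to 6.71, adjusted p = 0.563), with 59.6% of the Prelp in capture 1 of day 21 from 1 cell. With the mean of the log2 values of cells, in which single high cells weigh less, the difference was 2.90 and passed the test (limma, adjusted p = 0.0230), the only member to do so between days under the settings tried, while 70 of 13552 genes were called in place of 1.

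Fmod, encoding the collagen-binding fibromodulin, was at 9.78, 13.2 and 4.71 FPKM on day 12, at 30.2 and 6.84 on day 15, and at 20.3 and 106 on day 21. Its day 21 captures lay above day 12, by 2.32 ± 0.89 (adjusted p = 0.639), yet 1 of 18 cells gave 98.7% of the Fmod in capture 1 of day 21. In capture 2 of that day 11 of 34 cells had at least 10 FPKM. Podn, whose product also binds collagen, was at 0.738, 0.0119 and 1.59 FPKM on day 12, at 1.27 and 9.69 on day 15, and at 1.28 and 10.5 on day 21, and its days overlapped.

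Of the 9 members, 6 had day 21 captures wholly above those of day 12, namely Dcn, Lum, Fmod, Omd, Aspn and Prelp, and none wholly below, while 7.98% of all genes lay wholly above and 14.4% wholly below. Against day 15, Dcn, Bgn, Aspn and Prelp were wholly higher on day 21 and none lower, with 13.2% and 16.6% of all genes. Between days 15 and 12, Dcn, Lum and Omd were wholly higher and Bgn wholly lower, with 8.81% and 13% of all genes. Dcn, Lum and Omd were above every day 12 capture in all 4 later captures, as were 2.36% of genes, and no member was below them in all 4, as were 5.11%. These counts were made after the values were seen. The share of all FPKM taken by the family was 1.81% and 1.96% in the day 21 captures and between 1.22% and 1.35% in the other 5. A matrix cell had a median of 5 members at 10 FPKM or more on days 12 and 15 and of 6 on day 21, and 36.5%, 43.1% and 63.5% of the cells had 6 or more. These medians and shares pool the cells of a day's captures, and the shares of single captures overlapped between days 12 and 21. The median fragments of matrix cells were between 1202105 and 2005077 in the captures of day 12, lower on day 15 (978920 and 980454) and highest on day 21 (2205484 and 2302240), and their part in these counts was not tested.

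**Figure D2:**
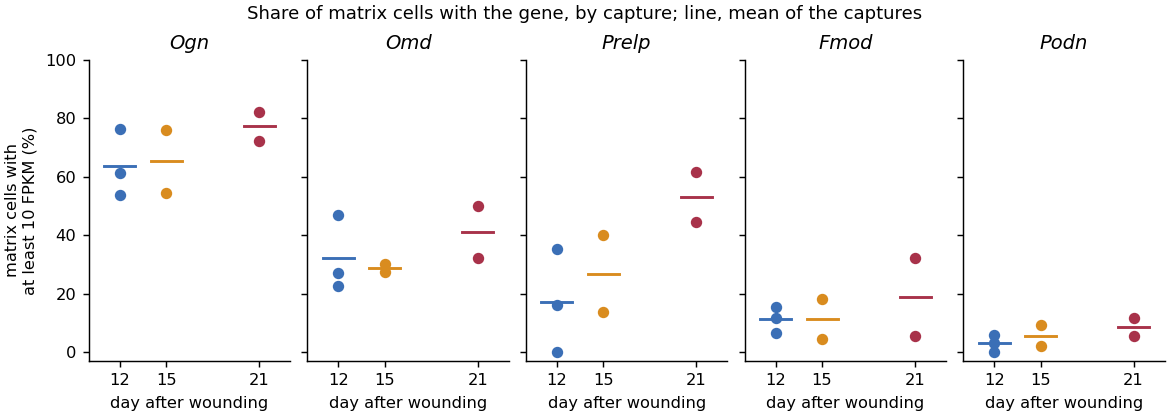
Share of matrix cells with at least 10 FPKM of the 5 less abundant members, against days after wounding. Points are captures and short lines the mean of the captures of a day. For Prelp both day 21 captures, at 44.4% and 61.8%, lie above the other 5, while the days overlap for the other members.

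The second comparison set the mural cells, which were gated on Rgs5, a gene of pericytes and vascular smooth muscle, and not on their position in the wound, against the matrix cells of the same captures. It used the 5 captures with at least 3 mural cells, so capture 2 of day 15 with 1 mural cell and capture 2 of day 21 with none were left out. Of 8 members tested, 4 were lower in mural cells and none higher (limma with the capture as a block, adjusted p over 13821 genes), beside 1.69% of all genes called, 0.745% lower and 0.941% higher. Matrix cells were gated on Col1a1 and mural cells were not, so lower levels of members that follow Col1a1 are partly fixed by the gate. Podn was under the filter of 1 FPKM and was not tested. The median difference over all genes was -0.22. Fold changes on the log2(FPKM + 1) scale understate those of low genes.

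The mural mean of Dcn was 819, 1485 and 1374 FPKM in the captures of day 12, 415 in capture 1 of day 15 and 1773 in capture 1 of day 21. Every value lay below those of matrix cells, and the log2 difference was -2.11 ± 0.25 (adjusted p = 0.00244). Lum was at 180, 19.3 and 627 FPKM on day 12, at 261 on day 15 and at 1295 on day 21. It too lay wholly below the matrix cells, by -3.48 ± 0.63 (adjusted p = 0.0250), although the captures differed among themselves from -6.93 to -1.19. Omd was at 0, 0 and 3.83 FPKM on day 12, at 15.9 on day 15 and at 55.1 on day 21. The difference was -3.84 ± 0.63 (adjusted p = 0.0156), and Omd was below the matrix cells of each of the 5 captures. The values of 0 rest on 9 and 7 mural cells. At a floor of 3 cells these allow shares with detected Omd of up to 33.3% and 42.9%, for counting error only. In the matrix cells of the same captures Omd was detected in 9 of 31 and 7 of 26. These shares lie within those limits, so the values of 0 do not by themselves show that fewer mural cells held Omd. Aspn was at 518, 525 and 465 FPKM on day 12, at 294 on day 15 and at 1333 on day 21, and also lower in each capture, with a difference of -1.12 ± 0.21 (adjusted p = 0.0282).

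Bgn was not among the calls. It was at 1294, 1569 and 1550 FPKM in the mural cells of day 12, at 1580 on day 15 and at 408 on day 21, and overlapped the matrix cells. The difference was -0.44 ± 0.26 (interval -1.03 to 0.14, adjusted p = 0.491). Bgn was the highest member of mural cells in 4 of 5 captures and made up 45.9%, 42.6%, 38.1% and 58.1% of the family there, but 8.08% in capture 1 of day 21. Ogn, at 4.99, 1.59 and 24 FPKM on day 12, 102 on day 15 and 78.8 on day 21, differed by -3.12 ± 0.68 and just missed the threshold (adjusted p = 0.0516). Prelp was at 1.79, 0, 18.6, 45.5 and 109 FPKM in the same order, lower than in the matrix cells of each capture, by -0.97 ± 0.62 (interval -2.34 to 0.40). Its difference was -3.11 in capture 1 of day 12 and between -0.56 and -0.28 in the others. In capture 2 of day 12 the matrix cells themselves averaged only 0.216 FPKM of Prelp. Fmod was at 1.65, 82.2, 0.446, 4.52 and 5.2 FPKM and differed by -1.15 ± 0.81 (interval -2.95 to 0.66), with capture 2 of day 12 above its matrix cells through 1 cell of 575 FPKM.

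Dcn was called whichever capture was left out, but each of the other calls was lost when certain captures were left out singly. That of Aspn was lost without any one capture of day 12 or capture 1 of day 15 (adjusted p from 0.0876 to 0.105), that of Lum without capture 1 of day 12 (0.0908) or of day 15 (0.104), and that of Omd without capture 1 (0.0602) or 3 (0.0561) of day 12, while Ogn was called without capture 1 of day 21 (0.0458, all limma) and in 6 alternatives in all, and not called in the other 10. The 6 include mural cells with less than 1000 FPKM of Col1a1, a choice made after the values were seen. Without the block Aspn (0.133) and Omd (0.0785) were not called, and with genes of low values kept in no member was. No member's mural difference was called as differing between day 12 and the later captures, where 0% of genes were called and 737 had an unadjusted p under 0.05 (limma). That of Ogn, at -4.99, -5.09 and -3.30 on day 12, -1.02 on day 15 and -1.21 on day 21, had the lowest unadjusted p among members (limma, 3.35 ± 1.35, adjusted p = 0.902).

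**Figure D3:**
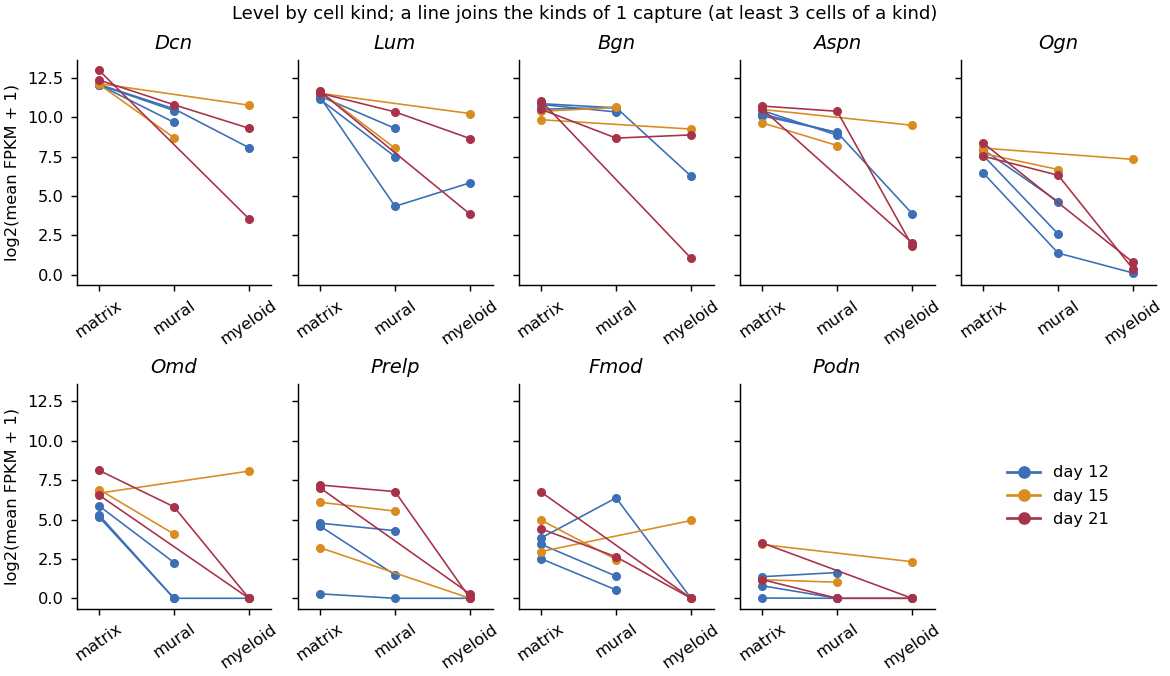
Level of each member as log2(mean FPKM + 1) in matrix, mural and myeloid cells. Points are means of captures with at least 3 cells of the kind, colored by day, and lines join the kinds of 1 capture. Dcn and Lum are lower in mural than in matrix cells in every capture joined, whereas Bgn stays near the level of matrix cells in the mural cells of 4 of 5 captures.

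Mural cells were uneven in these genes. The gate for mural cells does not use Col1a1, and of the 57 mural cells 19 had at least 1000 FPKM of it and 38 had less. This split was made after the values were seen and is given as a description. In the 19 cells the median was 2097 FPKM for Dcn and 411 for Lum, and in the 38 it was 12.0 and 2.16. Ogn reached 10 FPKM in 52.6% of the former and 5.26% of the latter, and Omd in 31.6% and 2.63%. Pooled over captures, Bgn and Aspn divided less. Bgn had a median of 1192 FPKM in the 19 cells and 876 in the 38, and reached 10 FPKM in 100% and 92.1%. Aspn had medians of 506 and 267 FPKM and reached 10 FPKM in 89.5% and 92.1%.

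The captures bore this out unequally. In the mural cells with less than 1000 FPKM of Col1a1, Lum averaged 2.10, 0.154 and 10.3 FPKM in the captures of day 12, 93.8 in capture 1 of day 15 and 0 in capture 1 of day 21. Dcn was at 314, 1039, 333, 15.4 and 32.4 FPKM in the same order, Aspn at 800, 612, 324, 289 and 507, and Bgn at 602, 1298, 1607, 1382 and 141. Over all mural cells of the same captures Bgn averaged 1294, 1569, 1550, 1580 and 408 FPKM, and Aspn 518, 525, 465, 294 and 1333. Bgn was thus lower in the cells with little Col1a1, except in capture 3 of day 12. Aspn was higher in them in captures 1 and 2 of day 12 and lower in the others, barely so on day 15. Summed over 10 matrix markers, mural cells of a capture held between 4139 and 12142 FPKM, against 15718 to 29993 in matrix cells. Whether matrix RNA from other cells contributed to the members' levels in mural cells was not tested, and no doublet caller was run, though the study kept wells with 1 cell by microscopy.

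**Figure D4:**
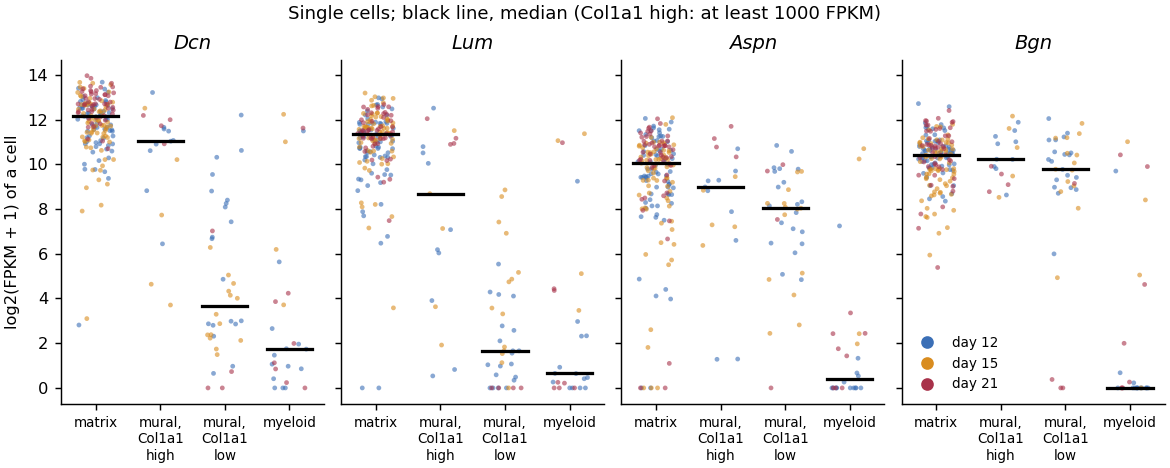
log2(FPKM + 1) of Dcn, Lum, Aspn and Bgn in single cells, for matrix cells, mural cells with at least or less than 1000 FPKM of Col1a1, and myeloid cells. Points are cells colored by day and black lines are medians. In mural cells with little Col1a1 the medians are 12.0 FPKM for Dcn and 2.16 for Lum, against 2.35 and 0.565 in myeloid cells, while those of Aspn (267) and Bgn (876) stay nearer to matrix cells.

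The third comparison set the myeloid cells, which carried the label as well, against the matrix cells. It used the 4 captures with at least 3 myeloid cells, capture 2 of days 12 and 15 and both of day 21. All 9 members were tested, and 4 were lower and none higher, beside 6.57% of all genes called, 4.89% lower and 1.69% higher. Here too the Col1a1 gate of the matrix cells partly fixes lower levels of members that follow Col1a1. The median difference over all genes was -1.0. Dcn averaged 267 FPKM in the myeloid cells of day 12, 1742 on day 15, and 631 and 10.7 on day 21, which was -4.47 ± 0.93 from matrix cells (adjusted p = 0.0260). Lum was at 56.2, 1205, 400.2 and 13.4 FPKM in the same order, with a difference of -4.35 ± 0.83 (adjusted p = 0.0187). Aspn was at 13.8, 719, 2.58 and 3.08 FPKM, the largest difference at -6.15 ± 1.14 (adjusted p = 0.0170), and Ogn at 0.0782, 159, 0.276 and 0.717, with -5.46 ± 1.28 (adjusted p = 0.0344).

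Capture 2 of day 15, with 4 myeloid cells, was the highest for each of these members. Bgn was at 75.6, 608, 470 and 1.06 FPKM and differed by -4.12 ± 1.19, which did not pass (adjusted p = 0.0585). Prelp, at 0 in 3 of the 4 captures and 0.21 in the other, differed by -4.36 ± 1.18 (adjusted p = 0.0501). Omd (-4.64 ± 1.46, adjusted p = 0.0744) and Fmod (-3.25 ± 1.31, adjusted p = 0.139) were at 0 in the myeloid cells of 3 captures, and 1 cell gave nearly all of each in the other. Podn differed by -1.45 ± 0.85 (adjusted p = 0.293).

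A few cells carried most of this RNA. Of the 26 myeloid cells 4 had at least 1000 FPKM of Col1a1, 1 in capture 2 of day 12, 2 in capture 2 of day 15 and 1 in capture 1 of day 21. These averaged 3228 FPKM of Dcn, 1845 of Lum and 1151 of Bgn, while the other 22 averaged 8.52, 4.63 and 46.1, with medians of 1.47, 0.355 and 0. Whether RNA of matrix cells contributed to the levels in the 4 cells was not tested. Dcn reached 10 FPKM in 5 of those 22 cells, and Omd was detected in none, which at a floor of 3 cells allows a share with detected Omd of up to 13.6%, for counting error only. A further fit used those of the 22 cells that lay in captures with at least 3 of them. This choice was made after the values were seen and leaves 3 captures, capture 2 of day 12 and both of day 21. In that fit 7 of 9 members were called lower, Fmod, Omd and Bgn in addition, while 1353 of 12876 genes were called, 1158 of them lower. These cells were picked for little Col1a1 and set against cells gated for much of it, so lower matrix genes are partly fixed by the choice. Without capture 2 of day 12 no member was called (adjusted p from 0.0580 to 0.0955 for the 4), without capture 1 of day 21 Aspn (0.0515) and Ogn (0.106) were lost, without capture 2 of that day Ogn (0.0961), and without capture 2 of day 15 Fmod (0.0459) and Omd (0.0242) were gained (limma).

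Other genes of the proteoglycan pathway were read from lists chosen with earlier results of these data known. Between days, none of the tested genes of any list was called. In mural cells 5 of 9 tested collagens that the proteoglycans bind were lower and none higher, with a median of -1.80, and the largest were Col14a1 (-3.72 ± 0.77), Col12a1 (-2.03 ± 0.36) and Col1a2 (-2.01 ± 0.19). Since matrix cells were gated on Col1a1, lower collagen in the other kinds is partly fixed by the gate. Of 7 proteases that can cut the family's proteins, Mmp2 (-2.73 ± 0.44), a gelatinase, and Mmp14 (-1.85 ± 0.38), which activates it, were lower. None of 18 enzymes for chondroitin or dermatan sulfate chains was called (median -1.04), none of 3 for keratan sulfate (-0.45), none of 10 growth factors and receptors (-0.94) and none of 5 other members of the wider family (-1.44).

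In myeloid cells 6 of 9 collagens were lower (median -4.03), among them Col12a1 at -4.70 ± 1.04. Mmp3 (-6.25 ± 1.22), Mmp2 and Adamts4 were the 3 of 7 proteases called lower. Csgalnact1 (-3.46 ± 0.86) and Dsel (-3.77 ± 0.90) were the 2 of 18 sulfate chain enzymes called lower, and the first starts the chondroitin chain. Of 10 ligands and receptors, Ccn4 (-4.95 ± 1.1), Igf1r (-5.02 ± 1.02) and Tgfb2 (-3.60 ± 0.92) were lower. None of 3 keratan sulfate enzymes (median -2.66) and none of 6 other family members (-2.01) was called. Kera, a cornea keratocan singled out after its values were seen and a neighbour of Lum, averaged 124 ± 62 FPKM in matrix cells (SD, n = 7), between 30.5 and 215 in a capture.

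The last question was which members went together within the matrix cells. Over 198 cells, with log2(FPKM + 1) centred within each capture, the median Pearson r of the 36 pairs was 0.186, and 30 pairs were above 0. These are descriptions across cells of shared libraries. Single members had r between -0.0559 and 0.132 with the log2 fragments of the cell and between -0.0698 and 0.207 with its number of genes detected, the highest being Aspn (0.207), Dcn (0.207) and Lum (0.180). By Pearson r Dcn and Lum were the closest pair at 0.657, positive in 7 of 7 captures (0.0545 to 0.778), followed by Fmod and Prelp at 0.447 (5 of 7 captures) and Lum and Aspn at 0.442 (5 of 7). Bgn went with Aspn (0.419, 5 of 7 captures) and Prelp (0.383) but not with Lum (0.0189). Ogn and Omd had 0.386, positive in 7 of 7 captures (0.257 to 0.693). The 5 pairs on the same chromosome had a median of 0.386 and the 31 others of 0.150. Cenpp, which overlaps the members on chromosome 13, was detected in 11 of the matrix cells, and its part in their r was not tested. Lum with Fmod (-0.0993) and Dcn with Omd (-0.0616) had the lowest r. The order changed with Spearman's rho on ranks within captures, by which Ogn and Aspn were closest at 0.50 (r = 0.376), Dcn and Lum had 0.413, and Dcn with Omd was lowest at -0.199.

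**Figure D5:**
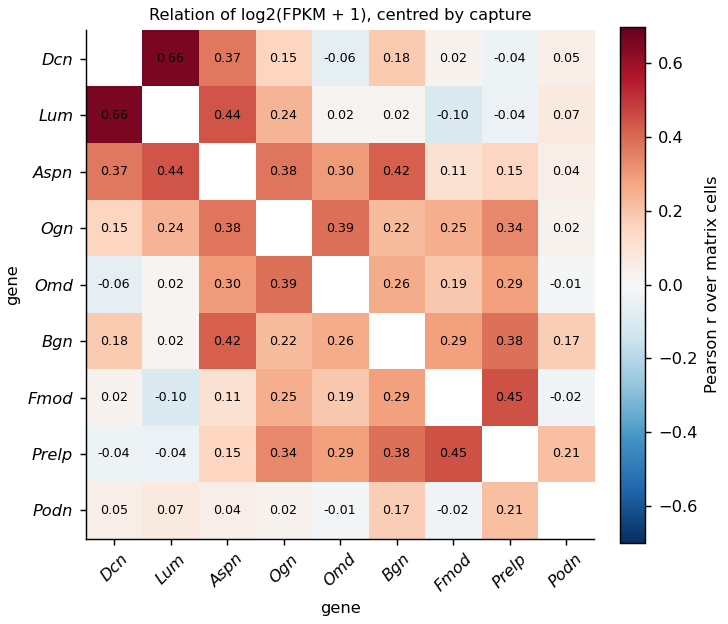
Pearson r of log2(FPKM + 1), centred by capture, for each pair of members over 198 matrix cells. Red is positive and blue negative. Dcn and Lum stand out at 0.66, and Fmod and Prelp, Ogn and Omd, and Aspn with several members form the other warm fields.

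The pairs can also be read as counts of the same cells, here pooled over captures and not corrected for them. Capture 2 of day 21 alone held 11 of the 30 Fmod cells and 21 of the 63 Prelp cells. Of 30 matrix cells with at least 10 FPKM of Fmod, 24 had as much Prelp (80%), as did 31.8% of all matrix cells, and these 24 were 38.1% of the 63 Prelp cells. Of 63 cells with Omd, 60 also had Ogn (95.2%), beside 69.2% of all cells, and they were 43.8% of the 137 Ogn cells. Prelp cells held Ogn as often, in 60 of 63. Omd and Prelp met in 32 of the 63 cells of each (50.8%).

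Among 9420 genes detected in at least 20% of matrix cells, the gene most like Dcn was Lum, then Ifitm2 (0.472) and Col3a1 (0.458), a fibrillar collagen. Lum was followed by Col3a1 as well (0.493). Aspn was most like Pdpn (0.525), which encodes podoplanin, and Lox (0.523), the collagen crosslinking enzyme. Ogn was most like C1qtnf3 (0.472), Itgbl1 (0.455) and Col1a2 (0.407), and Omd most like Col8a1 (0.449), then Ogn and Lgr5 (0.360). Bgn was most like Serping1 (0.435), the C1 inhibitor gene, then Aspn and Pdpn (0.388). Fmod was most like Mgp (0.494), an inhibitor of calcification, then Prelp and Fap (0.424), while Prelp was most like Ccn3 (0.464), then Fmod and Col8a2 (0.438). For Podn no gene exceeded 0.327.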

How the data were processed

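Single-cell RNA of Sm22-Cre;tdTomato wound cells from 7 C1 captures (367 cells) was analysed. Per the labels and the study's methods the authors aligned reads to mm10 with Bowtie 1.0.0 through RSEM, and the deposited values were taken to be FPKM, since their unit is not named and was read from their sums and steps. The day 12 captures were assigned by sample titles, as a description of the third names another matrix. Cells were kept with at least the study's minimum of fragments (inferred from the increments of FPKM values), at most 11000 genes and at most 15% mitochondrial FPKM. The members, lists and tests were chosen with earlier results of these data known. The planned tests were fitted with limma 3.58.1 (R 4.3.3) with a variance trend on log2(mean FPKM + 1) per capture, leaving out genes averaging less than 1 FPKM, with Benjamini-Hochberg adjustment and a threshold of 0.05. Tests are two-sided, and the fits were checked on simulated data. All members are named, and of the lists those genes that passed, the largest first. The alternatives were the cell filter, gates, pseudocount, filter on low values, averaging, TPM scale, block and each capture left out. Python 3.11.15 was used for the rest, and other assays of the study were not analysed here.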

Additional observations from a re-analysis of the deposited data

Results flagged for a closer look

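Differences of mural and of myeloid from matrix cells within a capture were screened for a capture far from the others, and 2 of 17 groups were picked out, both among the 8 mural ones, where chance gives about 1 in 20. For Fmod capture 2 of day 12 was the highest of 5, at 2.55 on the log2 scale, where 1 mural cell held 575 FPKM. For Prelp capture 1 of day 12 was the lowest of 5, at -3.11. The 11 kept cells outside the 3 kinds entered no comparison, and members were found in them at 10 FPKM or more. There were 7 such cells for Dcn, 7 for Lum, 10 for Bgn, 3 for Ogn and 7 for Aspn.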

How the results depend on the processing

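Between days 0 members were called in all alternatives except the mean of log2 values for day 21 against 12, which gave 1 (Prelp). Captures of the same number did not deviate together (correlations from -0.00685 to 0.025), so no pairing was assumed, and with the number as a replicate block 0, 0 and 0 members were called between days. For mural cells the 4 called members became 2 without the replicate block, 0 with no filter on low values, which tests 25862 genes, and 3 with a pseudocount of 0.1 (Omd lost). They became 5 with no cell filter, a Col1a1 gate of 3000, the mean of log2 values, an Rgs5 gate of 1000 or mural cells with Col1a1 under 1000 FPKM (Ogn gained in each). The last choice was added after seeing the data, and it partly fixes lower matrix genes. With a capture left out, between 1 and 5 members were called. For myeloid cells the 4 became 2 with a pseudocount of 10 and 0 with no filter on low values. The count rose to 5 with a pseudocount of 0.1 or the mean of log2 values and to 6 on the TPM scale. It was 7 with Col1a1 under 1000 FPKM, added after seeing the data, and between 0 and 6 with a capture left out. The median r of pairs was 0.0937 within capture 2 of day 12 and 0.112 within capture 1 of day 21. Of the members' values under alternatives, 632 kept direction and side, 28 lost and 16 gained the call, and 19 changed direction, all in uncalled differences between days. These were Dcn on day 15 against 12 with no cell filter (-0.023) and the mean of log2 values (-0.0084), Bgn on day 21 against 12 with a Col1a1 gate of 300 FPKM (-0.0051) and the mean of log2 values (-0.12), and for day 21 against 15 Podn with no cell filter (-0.80) and on the TPM scale (-0.024) and Lum with the gate of 300 (-0.037). With a capture left out, the differences that changed direction ranged from -0.60 to 0.25 for Aspn, -0.29 to 1.71 for Fmod and -0.022 to 2.89 for Prelp (day 15 against 12), from -0.23 to 0.31 for Bgn (day 21 against 12), and from -0.34 to 0.49 for Ogn, -1.11 to 1.22 for Podn, -0.060 to 0.064 for Lum and -0.24 to 1.33 for Omd (day 21 against 15). Of all genes, 233 were called in mural cells, but 16 with no filter, 654 with the mean of log2 values, 593 with Col1a1 under 1000 FPKM and 98 to 225 without a capture. For myeloid cells 858 became 466 with no cell filter, 175 with a pseudocount of 10, 30 with no filter, 1353 with Col1a1 under 1000 FPKM and 102 to 328 without a capture, and 1363 on the TPM scale, with 222 higher and 1141 lower in place of 220 and 638. The mean of log2 values gave 28 genes for day 15 and 70 for day 21 against day 12, and the count of 1 for day 21 became 0 under most alternatives and 2 with a gate of 3000, while a pseudocount of 10 gave 1 for day 21 against 15. Fmod and Podn were read from few cells, and the part of depth in this was not tested. The causes were not tested.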
